A study of Mus musculus with 30 samples.

Results

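The 6 RNA-seq libraries described here hold the IL-10 positive cells of 2 mouse CD4 T cell cultures, pathogenic Th17 (pTh17, libraries 13, 14 and 15) and Th1 (libraries 4, 5 and 6). They were chosen by the culture and the sort compartment in their titles, from 30 libraries in all. All groups of the series started from sorted naive CD4+ CD44- GFP- cells of C57BL/6 double reporter mice (genotype Foxp3-GFP; IL-10 Thy1.1). For activation these received soluble anti-CD3 (2.5 ug/ml) and, as feeders, 6 irradiated splenocytes without CD4 T cells for each T cell. Th1 cultures received IL-12 at 20 ng/ml. The pTh17 cultures received 3 cytokines, 20 ng/ml of IL-1 beta, 25 ng/ml of IL-6 and 20 ng/ml of IL-23. At 72 h live TCR-beta+ CD4+ GFP- cells were sorted again by the IL-10 reporter, and 2000 cells were lysed for each library. The IL-10 negative cells of the same cultures, also 3 libraries each, served for comparison. The labels do not say whether the libraries of a group came from separate mice or cultures, so the spread that the p-values rest on may be technical.

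IL-10 is a cytokine that limits immune responses, and both Th1 and Th17 cells can make it beside the inflammatory cytokines that define them. Th1 cells form under IL-12, which acts through STAT4 and the transcription factor T-bet (Tbx21), and they make interferon gamma. Th17 cells form under IL-6 with IL-1 beta or TGF-beta, through STAT3, and IL-23 sustains their pathogenic form, which makes IL-17A, IL-17F and IL-22. The comparison asks how cells that share IL-10 production differ when they come from these 2 programmes.

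The promoters of 3 genes that separated the groups are shown because these genes stand for the programmes compared: a Th17 cytokine, the receptor of the cytokine that sustains Th17 cells, and the Th1 cytokine. Each is the 250 bases before the gene's start, 5′ to 3′ on the gene's strand, from RefSeq on GRCm38.p6, and capitals mark matches, on either strand, to the motifs searched.
Il17a, chr1:20730655-20730904, plus strand: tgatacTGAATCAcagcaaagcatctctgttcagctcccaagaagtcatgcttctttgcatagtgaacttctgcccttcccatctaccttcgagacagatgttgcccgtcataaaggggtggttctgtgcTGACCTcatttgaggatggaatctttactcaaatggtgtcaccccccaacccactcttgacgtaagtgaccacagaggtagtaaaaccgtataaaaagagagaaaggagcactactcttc
Il23r, chr6:67491856-67492105, minus strand: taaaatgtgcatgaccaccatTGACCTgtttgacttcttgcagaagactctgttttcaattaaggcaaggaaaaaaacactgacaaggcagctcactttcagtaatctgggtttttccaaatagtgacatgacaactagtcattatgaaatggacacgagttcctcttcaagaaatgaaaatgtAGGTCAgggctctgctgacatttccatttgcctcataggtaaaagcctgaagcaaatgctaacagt
Ifng, chr10:118440796-118441045, plus strand: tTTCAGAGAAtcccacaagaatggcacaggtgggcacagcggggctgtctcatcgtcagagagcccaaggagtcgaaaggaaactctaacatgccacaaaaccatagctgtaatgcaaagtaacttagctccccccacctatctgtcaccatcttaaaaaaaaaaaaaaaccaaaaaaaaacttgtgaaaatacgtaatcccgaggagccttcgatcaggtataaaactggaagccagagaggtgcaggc
The motifs were AGGTCA (a core site of nuclear receptors), AGGTGT (the core site of T-box factors), TTCNNNGAA (STAT) and TGANTCA (AP-1). The Il17a window held 1 AGGTCA match and 1 TGANTCA match, the Il23r window held 2 AGGTCA matches, and the Ifng window held 1 TTCNNNGAA match. AGGTCA was present in 11.7% of the 506 matched promoters of genes called at least 4-fold higher in pTh17 (5.35% of genes tested) and in 12.3% of the 244 called at least 4-fold lower (2.67%), beside 10.7% of the 9365 matched genes tested and 13.8% of all 27025 promoters. AGGTGT was present in 10.5% of the promoters of higher genes, 10.2% of those of lower genes, 9.92% of those tested and 12% of all. TTCNNNGAA was present in 6.52% of the promoters of higher genes and 10.2% of those of lower genes, beside 6.03% of those tested and 7.18% of all. TGANTCA was present in 8.3% of the promoters of higher genes and 8.2% of those of lower genes, beside 4.69% of those tested and 6.87% of all. These matches are descriptions of letters and carry no test.

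The 6 libraries held between 6611409 and 9434381 expected counts (5465169 to 8761272 in the negative libraries of the same cultures), and replicate libraries correlated at r of 0.982 to 0.987 in log CPM (counts scaled to library size) across genes. The 10 most abundant genes took 17.2% to 18.7% of counts in the Th1 libraries and 21.2% to 24.9% in the pTh17 libraries. Genes were called at a Benjamini-Hochberg adjusted p below 0.05 in edgeR's quasi-likelihood test. Of 12611 genes tested, 7401 (58.7%) were called between the IL-10 positive libraries of the 2 cultures, 3728 higher (29.6%) and 3673 lower (29.1%) in pTh17. At least 2-fold, 1711 genes (13.6%) were higher and 1064 (8.44%) lower. The 3 libraries of one culture did not overlap the 3 of the other for 63.4% of genes, so a call or a gap between groups is common here, and each count below is read against these shares. Upper quartile scaling moved the median log2 difference of all genes from 0.05 to 0.18 and made 60.8% of calls higher in pTh17, against 50.4% with the scaling used. Fold changes are pTh17 minus Th1 on the log2 scale with the SE, and CPM values with ± are means with the SD over 3 libraries.

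Il10 itself was lower in the pTh17 IL-10 positive cells. Il10 (chr1:131019845-131024970) stood at 389.5, 366 and 386 CPM in the 3 Th1 libraries and at 53.7, 50.9 and 50.03 CPM in the 3 pTh17 libraries. The groups were far apart, and Th1 was 7.37-fold higher (log2 difference -2.88 ± 0.11, adjusted p = 1.95e-23). In bulk libraries, fewer cells with a transcript and less RNA per cell cannot be told apart. In the IL-10 negative libraries Il10 stood at 6.43, 4.51 and 6.25 CPM in Th1 and at 1.20, 0.781 and 0.353 CPM in pTh17. That difference (-2.85 ± 0.37) was called too, and it did not differ detectably from the one in positive cells (difference of differences -0.03, adjusted p = 0.999). Thy1, of which the reporter carries an allele that these counts may include, stood at 1176, 1187 and 1309 CPM in Th1 and at 345, 335 and 309.8 CPM in pTh17 positive libraries, a log2 difference of -1.89 ± 0.07. In the negative libraries Thy1 differed by 0.22 ± 0.07, a call that was lost without Th1 negative library 5 (adjusted p = 0.0531) or pTh17 negative library 14 (adjusted p = 0.0516), and the 2 differences were themselves different (-2.11 ± 0.10, adjusted p = 1.54e-19).

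Known regulators of Il10 split between the cultures. Of 23 listed genes, Il10 included, 9 were higher and 14 lower in pTh17 (median -0.62). Maf, a transcription factor that drives Il10 in several helper types, stood at 119, 104 and 91.2 CPM in pTh17 and at 36.97, 26.4 and 28.6 CPM in Th1, so it was 3.45-fold higher in the group with less Il10 (1.79 ± 0.11, adjusted p = 4.49e-17). Irf4, which acts with Batf at many cytokine genes, stood at 513, 490.1 and 548 CPM in pTh17 and at 106, 110.4 and 108 CPM in Th1 (2.25 ± 0.08). Nfil3, a basic leucine zipper factor linked to Il10 in Th1 and Th2 cells, stood at 151, 152 and 132 against 32.8, 49.6 and 47.1 CPM (1.74 ± 0.12). All 3 were higher in every pTh17 library than in any Th1 library. The other 6 higher in pTh17 included Ahr, the aryl hydrocarbon receptor (1.16 ± 0.31, 5.03 against 2.25 CPM on average), Batf (0.34 ± 0.09) and the activation-induced factor Egr2 (0.48 ± 0.10). Ets1 (-0.27 ± 0.05), Ikzf3 (-1.24 ± 0.11) and the glucocorticoid receptor gene Nr3c1 (-0.63 ± 0.16) were among those higher in Th1. Prdm1, which encodes Blimp-1, stood at 109.9, 105 and 102 CPM in Th1 and at 67.01, 55.8 and 58.4 CPM in pTh17 (-0.80 ± 0.14, adjusted p = 3.47e-06). Bhlhe40, known as a repressor of Il10 in Th1 cells, stood at 1199, 1249 and 1216 CPM in Th1 and at 562, 495 and 501 CPM in pTh17 (-1.23 ± 0.08), so this repressor was higher in the group with more Il10. Neither Prdm1 (-0.04 ± 0.19) nor Bhlhe40 (0.06 ± 0.08) was called between the IL-10 negative libraries, and for both the difference between compartments was called (-0.76 ± 0.23 and -1.29 ± 0.12). Bach2, a repressor of effector genes, was higher in pTh17 among positive cells (0.39 ± 0.07) and lower among negative cells (-0.51 ± 0.06), and that reversal was itself called (0.90 ± 0.10, adjusted p = 1.72e-09).

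**Figure D1:**
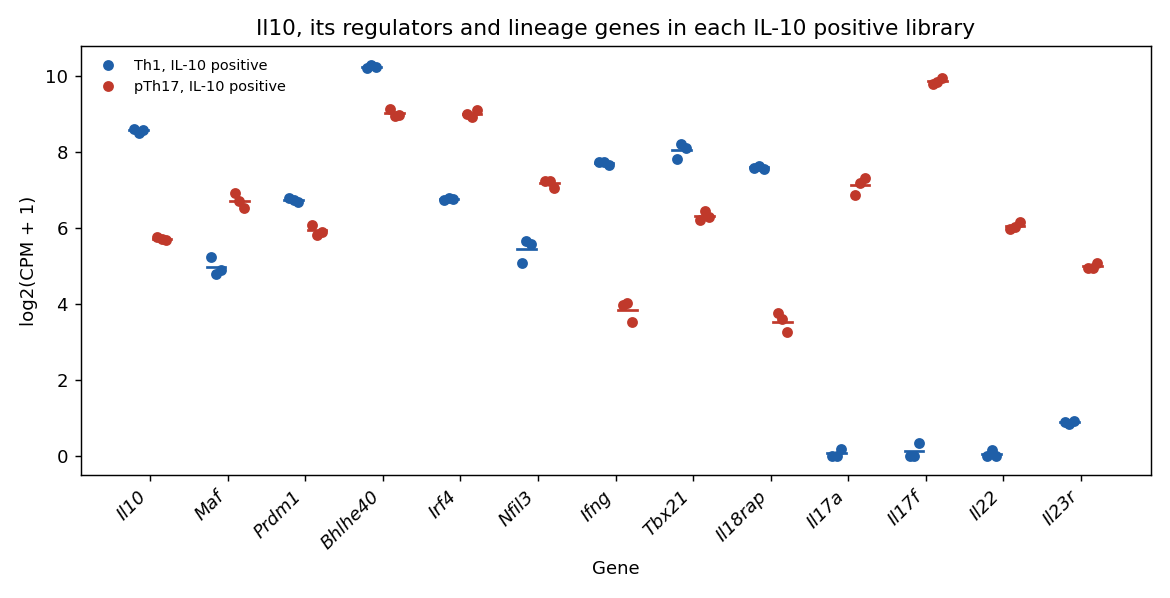
Each point is 1 IL-10 positive library, and short bars are group means, on a log2(CPM + 1) axis for Il10, 5 of its regulators and 7 lineage genes. Il10, Prdm1, Bhlhe40, Ifng, Tbx21 and Il18rap lie higher in Th1 (blue), and the other genes lie higher in pTh17 (red), with no overlap between the groups for any of these genes.

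The lineage genes followed the culture labels, with a few exceptions on each side. Of 18 Th17 lineage genes tested, 15 were higher and 1, Stat3 (-0.29 ± 0.07), was lower in pTh17 (median 3.32, against 0.05 over all genes). Il17f stood at 893, 917 and 1001 CPM in pTh17 and at 0, 0 and 0.251 CPM in Th1, a ratio of 11098-fold (95% counting interval 3072 to 91646) resting on 2 counts in Th1. Il17a stood at 117, 144 and 157 CPM in pTh17 and at 0, 0 and 0.125 CPM in Th1, where 1 count was found. Il22, which acts on epithelium, stood at 62.1, 63.8 and 69.8 CPM in pTh17 and at 0, 0.113 and 0 CPM in Th1. These 3 cytokines were near absent from the Th1 IL-10 positive cells. Corrected for transcript length, Il17f at 1568 ± 129 TPM exceeded Il17a at 235 ± 39.5 TPM and Il22 at 119.6 ± 10.1 TPM in pTh17. Il21, an autocrine Th17 cytokine, was 6.05-fold higher in pTh17, and Ltb4r1, a leukotriene B4 receptor, was 29.8-fold higher. Rora, a nuclear receptor gene, was not called (0.39 ± 0.19, adjusted p = 0.0742). It was called without Th1 library 4 (adjusted p = 0.0347) and under upper quartile scaling (adjusted p = 0.0153). DESeq2 (adjusted p = 0.0448) and libraries thinned to 1 depth (adjusted p = 0.0126) gave the call too. Ccr6, the gut-homing receptor typical of Th17 cells, reached only 2.23 ± 0.907 CPM.

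Of 18 Th1 lineage genes, 12 were lower and 3 higher in pTh17 (median -1.39). Ifng stood at 214, 214 and 200.3 CPM in Th1 and at 14.6, 15.4 and 10.4 CPM in pTh17 (-3.95 ± 0.13, adjusted p = 1.86e-23). The pTh17 IL-10 negative libraries, at 0.722, 0.781 and 0.588 CPM, all lay below the pTh17 positive ones. Tbx21 stood at 226, 295 and 274 CPM in Th1 and at 73.4, 86.8 and 76.7 CPM in pTh17 (-1.75 ± 0.12). Cxcr6, a receptor of effector T cells, was 11.03-fold lower in pTh17, and Stat4 was 2.96-fold lower. The 3 listed Th1 genes that were higher in pTh17 were the chemokines Ccl3 (0.45 ± 0.16) and Ccl4 (0.62 ± 0.11) and the receptor Cxcr3. The call of Ccl3 was lost without Th1 library 6 (adjusted p = 0.100) or pTh17 library 14 (adjusted p = 0.0678). Cxcr3 stood at 24.3, 21.4 and 27.5 CPM in pTh17 and at 2.45, 2.38 and 2.88 CPM in Th1 (3.24 ± 0.17, adjusted p = 8.11e-19), although it is known as a marker of Th1 cells. In the IL-10 negative libraries it was at 26.3 ± 2.17 CPM in Th1 and 45.8 ± 3.87 in pTh17, so the smallest of the 4 levels was that of the Th1 IL-10 positive cells.

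Cytokine genes of other helper types were also higher in pTh17. Of 25 effector cytokine genes tested, 17 were higher and 6 lower (median 2.18). Il4, the defining Th2 cytokine, stood at 9.52, 10.9 and 11.3 CPM in pTh17 and was at 0 in all 3 Th1 libraries, at least 83.6-fold higher by the floor of 3 counts over the Th1 group. Il24 (8.01 against 0.0377 CPM) and Il5 (4.45 against 0.0479 CPM) were higher as well, at low levels. Gata3, the Th2 transcription factor, went the other way, at 187 ± 7.82 CPM in Th1 and 109 ± 20.3 in pTh17 (-0.78 ± 0.08). Lif (1.71 ± 0.11), Tgfb3 (2.15 ± 0.16), Lta (2.18 ± 0.24) and Tnf (1.15 ± 0.14) were higher in pTh17. Csf1, the macrophage growth factor, was higher in Th1, at 116, 99.6 and 102 CPM against 14.2, 14.8 and 17.5 CPM in pTh17 (-2.77 ± 0.12). Csf2, which encodes GM-CSF, a cytokine associated with pathogenic Th17 cells, did not pass the filter on low counts, at 0.0794 CPM in pTh17 and 0.138 in Th1 positive libraries. Il9 had no counts in any of the 4 groups compared.

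A list of genes known to mark pathogenic against non-pathogenic Th17 cells did not separate pTh17 from Th1 in 1 direction. Of its 15 tested genes, 6 were higher and 9 lower in pTh17 (median -0.37). The higher genes were Il22, Il3, Cxcl3, Ccl3, Ccl4 and Gzmb, and the lower ones were Lrmp, Ccl5, Casp1, Tbx21, Icos, Il7r, Stat4, Lgals3 and Lag3. Lgals3, which encodes galectin-3, stood at 1069, 1003 and 1062 CPM in Th1 and at 133, 136 and 134 CPM in pTh17 (-2.96 ± 0.07, adjusted p = 4.07e-29). Casp1, the inflammasome protease, stood at 32.3 ± 2.83 CPM in Th1 and 2.54 ± 0.484 in pTh17 (-3.65 ± 0.22). In the IL-10 negative libraries 6 genes of the list were higher and 6 lower, where 54.1% of all genes were called, 26.4% higher and 27.8% lower.

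The receptors of the culture cytokines differed in part with the cytokines supplied. Of 12 listed receptor and kinase genes, 6 were higher and 4 lower in pTh17. Il23r stood at 29.996, 29.6 and 32.6 CPM in pTh17 and at 0.863, 0.792 and 0.877 CPM in Th1 (5.16 ± 0.28, adjusted p = 1.08e-16). Il12rb2, the subunit that confers the response to IL-12, stood at 897, 928 and 892 CPM in Th1 and at 328, 301 and 300.3 CPM in pTh17 (-1.55 ± 0.07). The 2 genes lie near each other on chromosome 6, Il12rb2 at chr6:67285986-67376293 and Il23r at chr6:67422932-67491855, and they differed in opposite directions. Il12rb1, the subunit that both receptors share, did not differ detectably between the positive groups (-0.09 ± 0.07, adjusted p = 0.244) but was higher in pTh17 among negative cells (1.35 ± 0.07).

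The interleukin-1 receptor cluster on chromosome 1 showed the same division between neighbours. Il1r2 (chr1:40084692-40125230), a decoy receptor for IL-1, stood at 423, 394 and 368 CPM in pTh17 and at 8.06, 6.79 and 7.27 CPM in Th1 (5.75 ± 0.16). Il1r1 (chr1:40222480-40316201), the signalling receptor, stood at 27.7, 29.5 and 37.3 CPM in pTh17 and at 1.15, 0.226 and 0.501 CPM in Th1 (5.70 ± 0.29, adjusted p = 1.77e-19). Both were higher in pTh17, and corrected for transcript length the decoy at 569 ± 26.9 TPM exceeded the signalling receptor at 11.99 ± 2.23 TPM. Another 3 genes of the cluster were higher in Th1. Il1rl1 (chr1:40404864-40465418), the receptor of IL-33, stood at 28.1, 28.1 and 26.7 CPM in Th1 and at 1.07, 0.698 and 0.428 CPM in pTh17 (-5.17 ± 0.32). Il18r1 (chr1:40465552-40500854) and Il18rap (chr1:40515362-40551707), the 2 subunits of the IL-18 receptor, were 4.85-fold and 17.9-fold higher in Th1. Il18rap stood at 192, 198 and 188 CPM in Th1 and at 12.5, 11.03 and 8.55 CPM in pTh17.

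The 2 chains of the IL-6 receptor and those of the interferon gamma receptor also split. Il6ra, the chain that binds IL-6, stood at 48.7, 54.9 and 52.2 CPM in pTh17 and at 4.46, 5.66 and 6.39 CPM in Th1 (3.22 ± 0.14). Il6st, which encodes the signalling chain gp130, stood at 28.1, 24.7 and 23.7 CPM in pTh17 and at 172, 193 and 181 CPM in Th1 (-2.83 ± 0.11). The pTh17 cells thus held more transcript of the binding chain and less of the signalling chain. Ifngr1, the binding chain for interferon gamma, was higher in Th1, at 749, 750.4 and 706 CPM against 262, 253 and 253 CPM in pTh17 (-1.52 ± 0.05). Ifngr2, the signalling chain, was nearly absent from Th1 IL-10 positive cells, at 0.575, 0.906 and 0.752 CPM, and stood at 30.9, 31.4 and 30.1 CPM in pTh17 (5.32 ± 0.17, adjusted p = 4.21e-26). In the negative libraries Ifngr2 was at 8.51, 9.02 and 7.95 CPM in Th1, all above the Th1 positive libraries, and the culture difference was larger in positive than in negative cells (2.93 ± 0.24, adjusted p = 4.03e-12). Among other cytokine receptors, 5 of 23 were higher and 15 lower in pTh17. Il4ra was 2.94-fold higher in pTh17, and Il2rb, a subunit of the IL-2 and IL-15 receptors, was 3.35-fold higher in Th1. The IL-10 receptor genes Il10ra (-1.60 ± 0.09) and Il10rb (-1.35 ± 0.10) were both higher in Th1.

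Some feedback regulators of cytokine signalling were higher in pTh17. Cish, induced by STAT5, stood at 552, 523 and 539 CPM in pTh17 and at 93.2, 85.9 and 96.8 CPM in Th1 (2.55 ± 0.08, adjusted p = 8.14e-26). Socs2 (2.35 ± 0.11) and Socs1 (1.43 ± 0.12) were also higher in pTh17, and Socs3, a target of STAT3, was barely so (0.18 ± 0.08, adjusted p = 0.0492). The call of Socs3 was lost without Th1 library 4, 5 or 6 or without pTh17 library 13 or 14, at adjusted p of 0.0854 to 0.174. Of the 19 STAT and SOCS genes, 7 were higher and 6 lower (3 lower under upper quartile scaling). Of 26 genes of NF-kappa B and IL-1 signalling, 14 were higher and 6 lower in pTh17 (median 0.43). Inhibitors and subunits induced by the pathway, such as Nfkbia (1.24 ± 0.07), Relb (1.23 ± 0.08) and Tnip1 (1.14 ± 0.10), were higher in pTh17. The adaptor Myd88, which serves the IL-1 and IL-18 receptors, was higher in Th1, at 243 ± 5.70 CPM against 86.3 ± 3.54 CPM (-1.49 ± 0.07), as were Irak2 (-0.98 ± 0.09) and Irak4 (-1.38 ± 0.10). In the negative libraries 8 genes of this list were higher and 8 lower in pTh17.

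Genes of the interferon response were lower in pTh17, with few exceptions. Of 28 listed genes of the interferon gamma response, 25 were lower and 2 higher in pTh17 (median -1.35). Gbp2, a guanylate binding protein of host defence, stood at 7582, 7755 and 7424 CPM in Th1 and at 990.3, 963 and 1009 CPM in pTh17 (-2.94 ± 0.08, adjusted p = 1.07e-27). Iigp1, an immunity-related GTPase, stood at 101, 88.98 and 96.6 CPM in Th1 and at 1.43, 1.95 and 3.14 CPM in pTh17 (-5.48 ± 0.18). The transcription factors Irf1 (-1.53 ± 0.08) and Irf8 (-1.71 ± 0.08) and the antigen processing genes Tap1 (-1.01 ± 0.06) and Psmb9 (-1.02 ± 0.08) were lower in pTh17 too. Reads of near-identical paralogs such as the Gbp and Tgtp genes may have been divided between members. The exceptions were Socs1 and Ciita, the transactivator of MHC class II genes, which stood at 3.57, 3.07 and 4.99 CPM in pTh17 and at 0.144, 0.113 and 0.752 CPM in Th1. The summed level of the list ran from 17926 to 18298 CPM in Th1 and from 5277 to 5662 CPM in pTh17 positive libraries, beside 11551 to 12119 and 6018 to 6283 CPM in the negative ones. For 17 of the 28 genes the culture difference was more negative in IL-10 positive than in IL-10 negative cells, against a background of 14.4% of all genes. Under upper quartile scaling, which moves that background to 1588 of 12611 genes, it was more negative for 15 of the 28 and more positive for 3. With the scaling used throughout it was more positive for 1, Ciita, a call that was lost without any of 5 single libraries, with an adjusted p of 0.698 without Th1 negative library 5. Of 24 type I interferon response genes tested, 17 were lower and 2 higher in pTh17 (median -1.58). Usp18, which removes ISG15 and damps interferon signalling, stood at 186, 182 and 195 CPM in Th1 and at 1.55, 2.23 and 2.71 CPM in pTh17 (-6.45 ± 0.15). Zbp1, a nucleic acid sensor (-2.79 ± 0.09), Ifit1 (-3.92 ± 0.28) and Irf7 (-1.72 ± 0.16) followed, and Mx2 (1.89 against 0.284 CPM) and Bst2 (0.43 ± 0.12) were the 2 that were higher in pTh17. The interferon-inducible DNA sensor family members Ifi204 (88.1 CPM in Th1 against 0.839 in pTh17) and Mnda (11.9 against 0.198) and the pyrin family gene Pydc4 (25.6 against 0.486) were among the 14 genes chosen as the lowest in pTh17, so that their direction is that of the choice.

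Cytotoxic genes were mostly higher in the Th1 cells. Of 17 tested, 11 were lower and 4 higher in pTh17 (median -2.03). Nkg7, a granule membrane protein, stood at 2339, 2235 and 2331 CPM in Th1 and at 94.3, 88.8 and 82.2 CPM in pTh17 (-4.70 ± 0.09, adjusted p = 7.25e-32). Fasl, the death ligand, stood at 68.5, 68.7 and 79.7 CPM in Th1 and at 0.476, 1.12 and 1.14 CPM in pTh17 (-6.32 ± 0.26). Gzma (-2.44 ± 0.16), the pore-forming Prf1 (-2.03 ± 0.09) and the granzyme inhibitor Serpinb9 (-4.14 ± 0.14) were higher in Th1 as well. Gzmb went the other way, at 1505, 1329 and 1315 CPM in pTh17 and 1057, 1075 and 1103 CPM in Th1, a difference of 0.36 ± 0.10 (adjusted p = 0.00169). Gzmc (1.77 ± 0.30), Srgn, which encodes the granule proteoglycan serglycin (0.39 ± 0.07), and Lamp1 (2.43 ± 0.28) were the other 3 higher in pTh17. Receptors shared with natural killer cells were higher in Th1, Klrk1 (NKG2D) at 82.9, 80.3 and 84.2 CPM against 1.55, 3.21 and 1.57 CPM (-5.29 ± 0.21) and Klrd1 with a difference of -3.69 ± 0.22. Ncr1, which defines natural killer cells, had no counts in any of the 6 libraries, and Klrb1c (NK1.1) was at 0.632 CPM in Th1 and 0.406 in pTh17. Of 6 tested natural killer markers 4 were lower and 1 was higher in pTh17. None was called higher after thinning to 1 depth or without Th1 library 4 or pTh17 library 13. The list, which includes Gzma, Klrk1 and Klrd1 from above, summed to 477 to 495 CPM in Th1 and 58.6 to 90.6 CPM in pTh17. The part of natural killer cells in these values was not tested.

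Chemokine receptors moved in both directions, with 10 of 18 higher and 8 lower in pTh17. Ccr1 (3.46 ± 0.24), Ccr4 (1.78 ± 0.13) and Ccr8 (1.60 ± 0.15) were higher in pTh17. Cx3cr1 (-2.55 ± 0.51) and the sphingosine phosphate receptor S1pr4 (-2.29 ± 0.06) were higher in Th1. The chemokine Ccl5 was higher in Th1, at 83.4, 78.9 and 80.3 CPM against 14.4, 11.2 and 12.1 CPM (-2.68 ± 0.14).

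Among genes typical of naive or memory T cells, Tcf7, Ccr7 and Igfbp4 were highest in IL-10 negative cells, intermediate in pTh17 positive cells and lowest in Th1 positive cells. Of the 22 listed, 7 were higher and 14 lower in pTh17 among IL-10 positive cells (median -1.04). Tcf7, which encodes TCF-1, stood at 167, 166 and 186 CPM in pTh17 and at 28.9, 32.1 and 26.2 CPM in Th1 (2.57 ± 0.08, adjusted p = 3.98e-26). Ccr7, the lymph node homing receptor, stood at 346, 366 and 389 CPM in pTh17 and at 81.6, 74.03 and 70.5 CPM in Th1 (2.29 ± 0.07). Igfbp4, an insulin-like growth factor binding protein of naive T cells, stood at 426, 508 and 575 CPM in pTh17 and at 33.9, 28.1 and 27.3 CPM in Th1 (4.08 ± 0.10). In the IL-10 negative libraries the 2 cultures were close, with differences of -0.12 ± 0.06 for Tcf7, -0.21 ± 0.06 for Ccr7 and 0.36 ± 0.08 for Igfbp4. The levels there were above those of both positive groups, at 702 ± 46.7 CPM of Tcf7 in Th1 and 648 ± 46.4 in pTh17. The difference between compartments was called for all 3 genes, at 2.68 ± 0.10, 2.50 ± 0.09 and 3.72 ± 0.12. Other genes of the list were lower in pTh17 in both compartments, among them Foxp1 (-2.02 ± 0.07 and -2.27 ± 0.07) and S1pr1 (-1.79 ± 0.08 and -1.29 ± 0.08). Ly6c2, a surface protein of effector and memory cells, had one of the largest differences, at 1172, 1103 and 1137 CPM in Th1 and 13.6, 14.1 and 15.1 CPM in pTh17 (-6.32 ± 0.10), with its near-identical neighbour Ly6c1 at -1.11 ± 0.09.

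**Figure D2:**
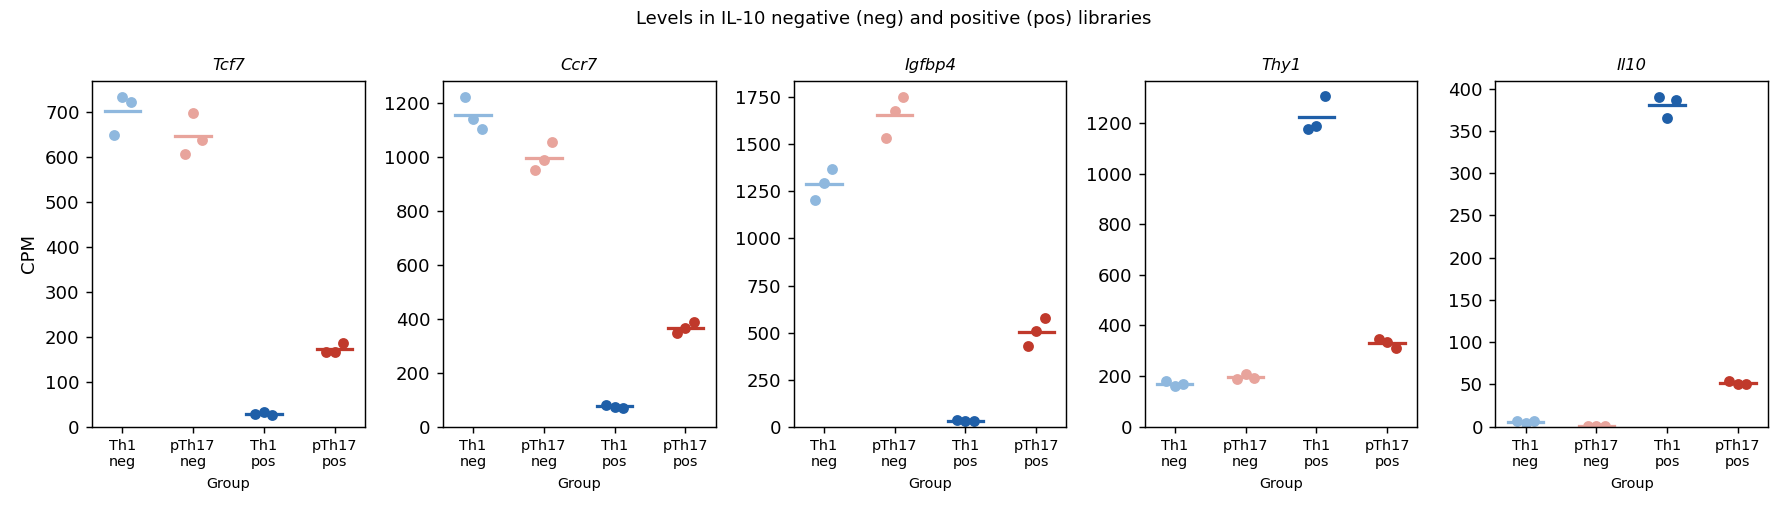
Points are single libraries and bars are group means, in CPM, for Tcf7, Ccr7, Igfbp4, Thy1 and Il10 in the IL-10 negative (pale) and positive (dark) libraries of Th1 (blue) and pTh17 (red). Tcf7, Ccr7 and Igfbp4 are lowest in Th1 positive libraries and intermediate in pTh17 positive ones, whereas Thy1 and Il10 are highest in Th1 positive libraries.

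Co-inhibitory receptors did not move as a group, with 7 of 18 higher and 10 lower in pTh17 (median -0.24). Havcr2, which encodes TIM-3, stood at 115, 132 and 135 CPM in Th1 and at 6.78, 4.61 and 5.56 CPM in pTh17 (-4.48 ± 0.16, adjusted p = 8.34e-24). Pdcd1, which encodes PD-1, stood at 172, 160.1 and 178 CPM in Th1 and at 36.7, 35.04 and 39.3 CPM in pTh17 (-2.20 ± 0.10). Among IL-10 negative cells Pdcd1 was not called (-0.19 ± 0.11), and the difference between compartments was (-2.01 ± 0.14). The ectonucleotidases Entpd1 (-2.28 ± 0.11) and Nt5e (-3.12 ± 0.20), which make adenosine, were higher in Th1. Tigit (0.68 ± 0.09), Ctla4 (0.40 ± 0.06), Cd5 (1.24 ± 0.06) and Cd200 (2.32 ± 0.09) were higher in pTh17. Lag3 was abundant in both, at 1502 ± 27.8 CPM in Th1 and 1289.5 ± 140.4 in pTh17 (-0.22 ± 0.06). Of 25 genes of costimulation and the TNF family, 10 were higher and 11 lower. Tnfrsf8, which encodes CD30, stood at 73.9, 62.4 and 67.98 CPM in pTh17 and at 1.73, 1.13 and 2.88 CPM in Th1 (5.16 ± 0.23), and the ligand Tnfsf14 at 24.3 ± 2.06 and 0.748 ± 0.659 CPM (4.98 ± 0.31). The TNF receptor Tnfrsf1b (-1.78 ± 0.08) and Cd27 (-1.35 ± 0.06) were higher in Th1.

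**Figure D3:**
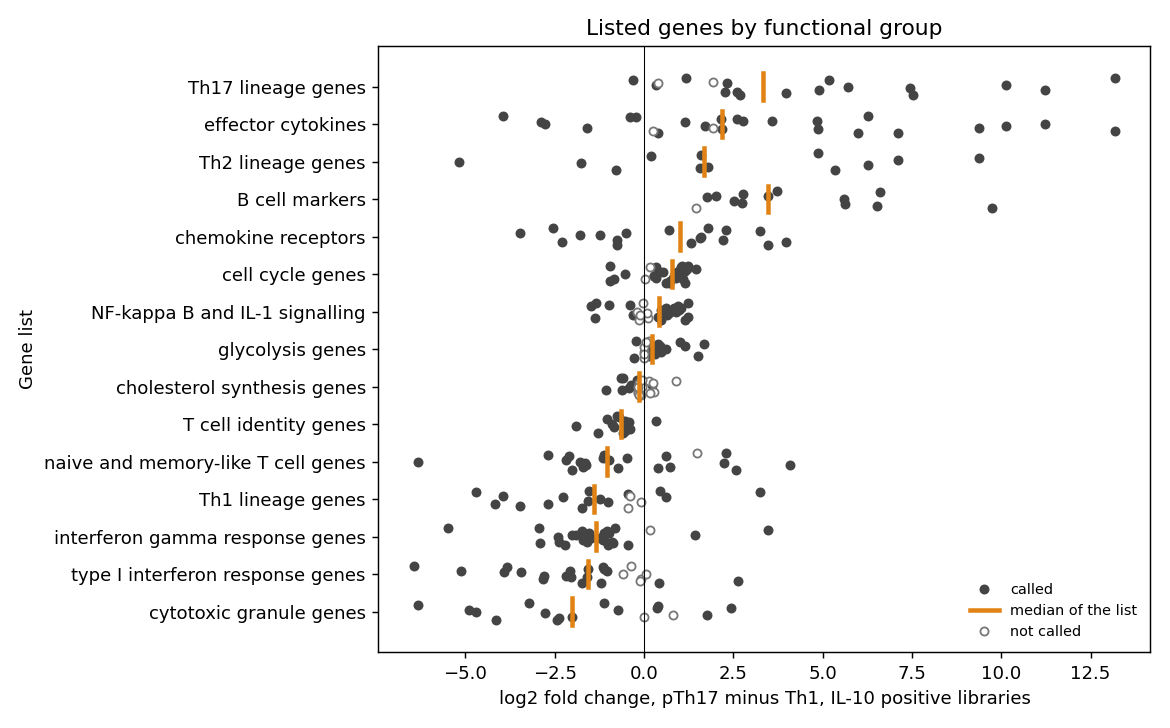
Each point is a tested gene, placed by its log2 difference between pTh17 and Th1 IL-10 positive libraries, for 15 gene lists; filled points were called and orange bars are list medians. Th17 lineage genes have a median of 3.32 and cytotoxic genes one of -2.03, and the interferon gamma list holds 25 genes that were lower and 2 that were higher in pTh17.

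Growth and metabolism showed how the contrast depended on the compartment. Of 30 cell cycle genes, 24 were higher and 4 lower in pTh17 among IL-10 positive cells (median 0.78), and 26 were higher among negative cells (median 1.46). Mki67, the proliferation antigen, stood at 235, 251 and 273 CPM in pTh17 and at 108, 116 and 116 CPM in Th1 (1.16 ± 0.08), and Mcm6, a subunit of the replicative helicase, differed by 1.16 ± 0.08. The 4 that were higher in Th1 were Pcna (-0.95 ± 0.09), Ccne1 (-0.85 ± 0.09), Ccnd2 (-0.52 ± 0.06) and Ccnd3 (-0.94 ± 0.06), cyclins and a replication factor of the G1 and S phases. Of 22 cholesterol synthesis genes, 7 were lower and 1, Mvd, was higher in pTh17 among positive cells (median -0.15), whereas 20 were higher among negative cells (median 0.96). Hmgcs1, an early enzyme of the pathway, stood at 775, 726 and 691 CPM in pTh17 and at 773, 735 and 815 CPM in Th1 positive libraries, which overlapped (-0.08 ± 0.06, adjusted p = 0.245). In the negative libraries it stood at 677, 623 and 641 CPM in pTh17 and at 287, 267 and 259 CPM in Th1 (adjusted p = 2.27e-19). The gap between the negative libraries was thus not detected between the positive ones, and the difference between compartments was called for 21 of the 22 genes, all more negative in positive cells, against 14.4% of all genes, and for 21 under upper quartile scaling too. Mvd was not called without Th1 library 4 or 5 or pTh17 library 13, and under upper quartile scaling 6 of the 22 were higher in pTh17 positive cells.

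Glycolysis genes followed a like course. Of 21, 13 were higher and 2 lower (1 without pTh17 library 14) in pTh17 among positive cells (median 0.24), and 21 were higher among negative cells (median 0.82). The difference between compartments was called as more negative in positive cells for 18 of them, and as more positive for 1, the pyruvate dehydrogenase kinase Pdk1 (0.35 ± 0.08). Hk2, the inducible hexokinase, stood at 73.9, 66.3 and 70.7 CPM in Th1 and at 84.3, 73.4 and 75.4 CPM in pTh17 positive libraries (0.15 ± 0.09), and at 11.4, 10.8 and 10.1 and 74.3, 66.9 and 67.2 CPM in the negative ones (2.70 ± 0.12). The Th1 IL-10 negative libraries were thus lowest among the 4 groups. The glucose transporter Slc2a3 (1.14 ± 0.09) and the hypoxia-inducible genes Bnip3 (1.52 ± 0.09) and Egln3 (1.67 ± 0.08) were higher in pTh17 among positive cells too.

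**Figure D4:**
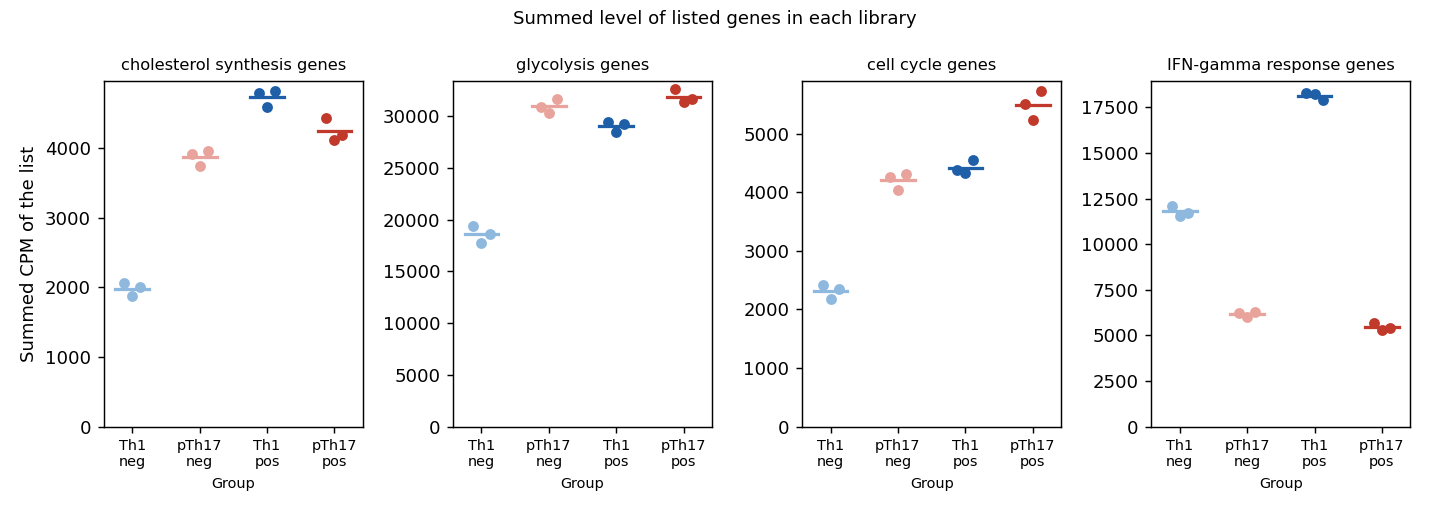
Points are single libraries and bars are group means of the summed CPM of 4 gene lists in IL-10 negative (neg) and positive (pos) libraries of Th1 and pTh17. For the cholesterol, glycolysis and cell cycle lists the Th1 negative libraries are lowest, and for the interferon gamma (IFN-gamma) list the Th1 positive libraries are highest.

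Across all genes, the culture difference was largely common to the 2 compartments. In the IL-10 negative libraries 6825 genes (54.1%) were called. Of the 7401 genes called in positive libraries, 4941 (66.8%) were called in the same direction in negative ones, 240 (3.24%) in the opposite direction and 2220 (30%) not at all. The difference between compartments was called for 3061 genes (24.3%), 1241 (9.84%) more positive and 1820 (14.4%) more negative in positive cells. This balance depended on the processing, with 1592 more positive and 1588 more negative under upper quartile scaling and 874 and 2090 with no filter on low counts. The difference was called for 885 of the 2220 genes that were called in positive libraries only, so for the rest a difference between compartments was not shown. The contrasts in the 2 compartments share no library, though positive and negative cells may have come from the same cultures.

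**Figure D5:**
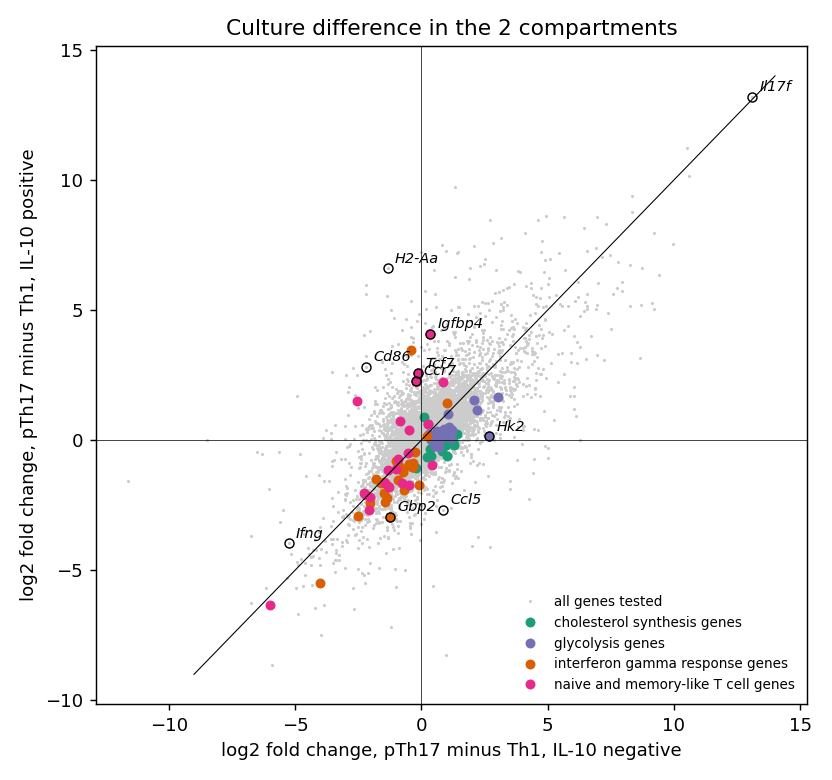
Each grey point is 1 of 12611 genes, placed by its log2 difference between pTh17 and Th1 in IL-10 negative (x axis) and IL-10 positive (y axis) libraries; coloured points are 4 lists, ringed genes are named, and the diagonal marks equal differences. Nearly all cholesterol and glycolysis genes lie below the diagonal (21 of 22 and 18 of 21 were called so), and Igfbp4, Tcf7, Ccr7, Cd86 and H2-Aa lie above it.

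Several of the genes with the largest differences are not typical of T cells, and genes listed as markers of other cell types differed between the cultures. Of 13 tested B cell markers, 12 were higher and 0 lower in pTh17 positive libraries (median 3.47), beside 29.6% and 29.1% of all genes. The MHC class II gene H2-Aa stood at 15.95, 17.9 and 20.1 CPM in pTh17 and at 0.432, 0.113 and 0 CPM in Th1, and at 0, 0.130 and 0.235 CPM in the pTh17 negative libraries. Cd79a stood at 5.36, 12.7 and 13.8 CPM in pTh17 positive libraries, lowest in library 13, as was H2-Aa. The summed B cell list ran from 246 to 332 CPM in pTh17 and from 46.4 to 57.97 CPM in Th1 positive libraries, and in the negative ones from 116 to 125 and 18.04 to 24.1 CPM. Ms4a1 and Pax5, which define B cells, were at 0.625 and 0.601 CPM in pTh17 positive libraries and did not pass the filter on low counts. Ciita, Cd86, Cd83, Pou2af1, Ido1, Il1b and Ccl22, all known in antigen-presenting cells, were higher in the same libraries, at 20.5 CPM for Cd86 and 11.1 CPM for Ido1. The cultures held irradiated splenocytes, and the sort was for TCR-beta+ CD4+ cells. The part of other cells in these values was not tested. The myeloid list gave 6 of 10 higher and 3 lower, with Lyz2 at 2.82 CPM in pTh17 and 0.0418 in Th1 (not called by DESeq2, adjusted p = 0.297), whereas Itgam, an integrin that activated T cells can also carry, was higher in Th1 (-3.76 ± 0.19). The summed myeloid list was higher in Th1, at 249 to 265 CPM against 119 to 137 CPM in pTh17 positive libraries. Cst3 alone made up the larger part of each sum, at 179 CPM in Th1 and 93.0 CPM in pTh17 on average.

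A further set among the 14 highest genes, mostly of extracellular matrix and secreted proteins, was high in pTh17 in both compartments. Col4a1, a chain of basement membrane collagen, stood at 63.3, 61.7 and 62.6 CPM in pTh17 positive libraries, at 0, 0.340 and 0 CPM in Th1 ones, and at 23.4, 18.7 and 27.4 CPM in pTh17 negative ones. Col4a2 (86.7 ± 10.4 against 0.346 ± 0.379 CPM), the proteoglycan gene Lum (32.8 ± 3.30 against 0.217 ± 0.0919), Crispld2 (72.5 ± 4.51 against 0.385 ± 0.468), the complement gene C3 (18.7 ± 1.51 against 0.138 ± 0.144), the carboxypeptidase gene Cpd (22.5 ± 5.86 against 0.182 ± 0.224) and Inhba, the activin subunit (37.97 ± 1.93 against 0.0897 ± 0.0782), were high in pTh17 as well. In the pTh17 negative libraries these 6 genes ran from 11.998 CPM (Cpd) to 41.98 CPM (Col4a2) on average, all below their level in pTh17 positive libraries. The 7 genes were named for the size of their difference. None belongs to the marker lists, so which cells held them was not tested. T cell identity genes were present in all 6 libraries, with Cd3e at 468, 447 and 445 CPM in Th1 and at 319, 305 and 316 CPM in pTh17 and Cd4 at 857 ± 10.9 and 638 ± 53.9 CPM. Of 14 such genes 13 were lower and 1, Cd6, was higher in pTh17 (median -0.64). Foxp3, against whose reporter the cells were sorted, was at 0.476 CPM in Th1 and 0.622 in pTh17.

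At the Th1 end of the ranking stood genes of several kinds. P2rx3, an ATP-gated channel best known from sensory neurons, stood at 53.7, 61.4 and 60.003 CPM in Th1 and at 0.119, 0.140 and 0.713 CPM in pTh17 (-7.48 ± 0.36, adjusted p = 4.46e-20). Plac8, a small cysteine-rich protein of leukocytes, was among the most abundant of them, at 1949, 1826 and 1873 CPM in Th1 and 35.5, 39.5 and 40.5 CPM in pTh17 (-5.61 ± 0.12). Rai14 (45.4 ± 2.72 against 0.514 ± 0.659 CPM), the long noncoding RNA Miat (23.04 ± 1.00 against 0.435 ± 0.256) and Rap1gap2, a regulator of the small GTPase Rap1 (30.8 ± 2.74 against 0.657 ± 0.455), were also among the 14. In the negative libraries P2rx3 was at 4.13 ± 1.26 CPM in Th1 and 0.246 ± 0.122 in pTh17, and Plac8 at 683 ± 26.8 and 26.4 ± 4.06, so both were higher in Th1 there too (-3.98 ± 0.52 and -4.69 ± 0.12).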

How the data were processed

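Each library was made from 2000 lysed cells by an adapted SMART-Seq2 protocol, per the labels' protocols. The method carries no molecular identifiers and no strand setting is stated, so antisense and overlapping genes and near-identical paralogs are uncertain. The authors deposited, for each library, a gene table of expected counts (estimates that can be fractional) and TPM, scaled for depth and transcript length, per the file headers. RSEM and mm10 are named in the submitters' processing notes, without versions. The aligner: not given in the sources used here. Groups came from the titles. The labels' sort text gives Thy1.1+ for both sorts, so compartments follow the titles. Expected counts were rounded, and the 23420 genes of the tables were filtered with filterByExpr to 12611. Libraries were scaled by TMM and tested with edgeR 4.0.16 (R 4.3.3) in 1 quasi-likelihood fit of all 30 libraries in 10 groups, two-sided, with Benjamini-Hochberg adjustment over all genes. The SE is the log2 difference over the square root of F. The contrasts read were pTh17 minus Th1 in positive libraries, the same in negative libraries, and their difference. CPM used the scaled library sizes. Ratios resting on 1 to 3 counts carry an exact 95% counting interval, which covers counting error only, and a group at 0 was given a floor of 3 counts over the group. Motifs were counted in the 250 bases before the start of the first promoter that RefSeq (GRCm38.p6, the assembly mm10 names) listed for each gene; 9365 tested genes matched. Gene coordinates came from RefSeq on the same assembly.

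Named genes were the members of 39 lists, the 14 highest and 14 lowest called genes in positive libraries with no overlap between groups and at least 10 CPM in the higher group, the 8 called genes at each end of the difference between compartments with at least 10 CPM in 1 of the 4 groups, and Il10 and Thy1. Genes known by Gm, LOC, Rik, BC, AI or AW numbers, small RNAs and antigen receptor segments were left unnamed unless listed, and results of a few named genes are not reported here. The members, lists and rule were chosen with earlier results of these data known. Of 604 list genes, 6 were not matched to a symbol of the tables. Alternatives were median-of-ratios and upper quartile scaling, DESeq2 1.42.0, no low-count filter, thinning to 1 depth, fits of only the contrast's libraries, each library left out, and, for the difference between compartments, the title number as a block. On simulated data with 11773 genes tested and 200 changed in pTh17 positive libraries, the contrast in positive libraries recovered 24%, 58%, 82% and 96% of genes changed 1.25, 1.5, 2 and 4-fold, with 5.11% of calls false, and the difference between compartments 8%, 28%, 74% and 92%, with 6.48% false.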

Additional observations from a re-analysis of the deposited data

Results flagged for a closer look

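In these results the culture difference itself differed between IL-10 positive and negative cells, by the test of that difference. It was called for 3061 genes. The 8 highest were H2-Aa (7.94 on the log2 scale), H2-Eb1 (5.09), Cd86 (5.01), Pou2af1 (4.85), Asph (4.36), Cd83 (4.36), Tnfsf4 (4.27) and Dapl1 (4.03). The call of Cd83 was lost without Th1 negative library 5 (adjusted p = 0.0855) or 6 (adjusted p = 0.0770) and after thinning (adjusted p = 0.142), and that of H2-Eb1 after thinning (adjusted p = 0.0606). The first 2 are MHC class II genes, Cd86 is a costimulatory ligand and Pou2af1 a B cell coactivator, and the B cell list was higher in the same pTh17 positive libraries. The part of B cells in these values was not tested. Cd86 stood at 16.1, 22.1 and 23.5 CPM in pTh17 and 3.02, 3.96 and 1.63 CPM in Th1 positive libraries, and at 0.361, 0.781 and 0.471 and 2.70, 1.77 and 2.98 CPM in the negative ones, so its direction turned. Pou2af1 was lowest in Th1 positive libraries, at 0.575, 1.47 and 0.376 CPM, with a mean of 28.2 CPM in pTh17 positive, 12.5 in Th1 negative and 14.2 in pTh17 negative libraries. For Asph, Tnfsf4 and Dapl1 it was the Th1 negative libraries that were highest. Tnfsf4, which encodes OX40 ligand, was at 11.2, 9.50 and 10.9 CPM there and at 1.46, 1.03 and 0.359 CPM on average in Th1 positive, pTh17 positive and pTh17 negative libraries. Dapl1, a gene of naive and memory T cells, was at 21.6, 24.5 and 25.7 CPM in Th1 negative libraries and at 4.12 CPM in pTh17 negative ones, and Asph at 22.4, 26.7 and 27.7 and 4.09 CPM.

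The 8 lowest were Miat (-4.64), Asns (-4.18), Ifitm3 (-3.99), Rai14 (-3.83), Sulf2 (-3.80), Mt3 (-3.77), Ccl5 (-3.52) and Ifitm2 (-3.51). The call of Rai14 was lost without pTh17 negative library 15 (adjusted p = 0.138). Ifitm3, an antiviral membrane protein, stood at 109, 102 and 109 CPM in Th1 and 21.2, 28.2 and 26.7 CPM in pTh17 positive libraries, and at 8.09, 7.57 and 5.82 and 28.9, 21.6 and 29.5 CPM in the negative ones. Its direction turned between compartments, as did that of Sulf2, a heparan sulfatase (-2.61 ± 0.30 in positive and 1.18 ± 0.37 in negative cells, the latter not called without Th1 negative library 6, adjusted p = 0.0579). Ifitm2 was higher in pTh17 in both (0.52 ± 0.12 and 4.03 ± 0.17), as was Asns, the asparagine synthetase (1.71 ± 0.21 and 5.89 ± 0.45). Mt3, a metallothionein, stood at 31.9, 29.4 and 24.1 CPM in Th1 positive libraries and below 3 CPM on average in the other 3 groups. Ccl5 was not called in negative cells (0.84 ± 0.39, adjusted p = 0.0645). Single outlying libraries were not searched for, since each group held 3.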

How the results depend on the processing

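The counts of called genes stayed within 1.5 times the reported ones in every alternative: 6644 to 7493 between positive libraries, 6200 to 6832 between negative ones, and 2607 to 3290 for the difference between compartments. With each library left out in turn the ranges were 6877 to 6992, 6234 to 6425 and 2628 to 2961. Over the 200 genes named here, 2390 gene calls of the contrast in positive libraries were recomputed, of which 2359 kept direction and side of the threshold, 22 lost the call and 9 gained it; in negative libraries the counts were 2375, 2306, 52 and 17, and for the difference between compartments 3783, 3611, 98 and 73. One result was called with the opposite sign: without pTh17 negative library 14 the difference between compartments for Havcr2, -0.09 and not called with all libraries, was 3.71 (adjusted p = 0.0455), the lowest value with a library left out being -0.67, and the cause was not tested. Upper quartile scaling ended the call of Lag3 (adjusted p = 0.200) and made that of Hk2 (adjusted p = 0.00824) and Rora (adjusted p = 0.0153). Ccl5 was called in negative libraries under 6 alternatives. The title numbers pair libraries only by number: the deviations of same-numbered positive and negative libraries correlated at -0.0177 to 0.0546, and not every library correlated best with its own number. With the number as a replicate block, 3290 genes were called for the difference between compartments. Depth limits the low genes: thinned to the smallest library, fewer genes passed the filter (11602).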

Other observations

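Genes of the TGF-beta pathway differed between the cultures, for neither of which the labels list TGF-beta. Of 19 tested, 10 were higher and 4 lower in pTh17 positive libraries (median 0.85). Lrrc32, which encodes GARP, the receptor that holds latent TGF-beta, stood at 67.4, 66.6 and 62.1 CPM in pTh17 and at 3.74, 3.17 and 3.01 CPM in Th1 (4.31 ± 0.21, adjusted p = 5.89e-20). Smad3, a signal transducer of the pathway, stood at 71.2, 62.5 and 56.7 CPM in pTh17 and at 8.92, 7.81 and 8.52 CPM in Th1 (2.92 ± 0.11), and in the negative libraries the difference was 0.49 ± 0.09. Furin, a protease that processes TGF-beta, and the receptor gene Tgfbr2 were higher in Th1, Furin at 1781, 1710.2 and 1798 CPM against 431, 406 and 419 CPM (-2.07 ± 0.06) and Tgfbr2 with a difference of -1.29 ± 0.11.

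Integrin and adhesion genes were mostly higher in Th1, with 13 of 20 lower and 6 higher in pTh17 (median -1.05). Itgal (-1.21 ± 0.06) and Itgb2 (-1.04 ± 0.05), which form LFA-1, and Cd48 (-2.81 ± 0.07) were higher in Th1, and Itga3 was higher in pTh17, at 84.3, 81.5 and 99.2 CPM against 8.06, 8.83 and 9.40 CPM (3.33 ± 0.17). Survival genes were divided, with 6 of 18 higher and 11 lower in pTh17. Bcl2 stood at 339, 357 and 372 CPM in pTh17 and at 66.03, 67.6 and 71.3 CPM in Th1 (2.38 ± 0.08), and Bcl2l11, which encodes its antagonist BIM, was higher in Th1, at 262 ± 5.34 CPM against 121 ± 9.90 (-1.12 ± 0.07). Fabp5, a fatty acid binding protein, was 6.51-fold higher in pTh17 and the phospholipid transfer gene Pltp was 8.30-fold higher in Th1.

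Of 44 transcription factors of T cell fate, 22 were higher and 15 lower in pTh17 positive libraries (median 0.34). The AP-1 members Junb (0.61 ± 0.06), Fosl1 (4.87 ± 0.99) and Fosl2 (0.88 ± 0.09) were higher in pTh17, while Fos (-0.49 ± 0.13) and Jun (-0.72 ± 0.07) were higher in Th1. Fosl1 rested on few counts, 38 in the pTh17 and 1 in the Th1 positive libraries. Its ratio was 39.98-fold, with a counting interval of 6.75 to 1620. Myc was higher in pTh17, at 293, 272 and 298 CPM against 153, 144 and 157 CPM (0.93 ± 0.08), and Hopx, known from Th1 cells, was higher in Th1, at 42.004, 38.7 and 29.4 CPM against 3.69, 3.77 and 4.28 CPM (-3.23 ± 0.24). Of 20 amino acid response genes, 11 were higher and 2 lower (median 0.60), and in negative libraries 16 were higher (median 0.76). Atf4, the transcription factor of that response, differed by 0.35 ± 0.07 in positive and 0.75 ± 0.07 in negative libraries, and Phgdh, the first enzyme of serine synthesis, by 0.55 ± 0.09 and 1.52 ± 0.10. Of 14 lipid genes, 5 were higher (3 without pTh17 library 15) and 7 lower, and of 9 chemokine genes 6 were higher and 1 lower.

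The shorter lists are given by their counts, beside 29.6% of all genes called higher and 29.1% lower. Of 6 Treg markers 3 were higher, among them Ikzf4 (2.07 ± 0.18), and 1, Nrp1, was lower (-2.94 ± 0.17), or 2 were lower without Th1 library 6, without pTh17 library 15 and by DESeq2. Among 6 targets of the aryl hydrocarbon receptor 4 were higher and 1 lower, with Ahrr, a repressor induced by that receptor, at 2.38, 2.09 and 2.71 CPM in pTh17 and 0.575, 0.792 and 1.63 CPM in Th1 (1.23 ± 0.37). No target was called lower under upper quartile scaling, after thinning, or without Th1 library 4 or 5 or pTh17 library 13 or 15. Of 8 metallothioneins and zinc transporters 2 were higher and 1, Mt3, was lower. The non-pathogenic Th17 list had 3 of 6 higher and 3 lower, and the Th2 list 9 of 12 higher and 3 lower, among the latter Epas1 (-1.76 ± 0.14). All 3 tested gamma-delta and innate-like markers were higher, and so was the 1 tested red cell and platelet marker, Itga2b (3.54 ± 0.72). Both CD8 genes were lower, Cd8a at -0.69 ± 0.30 and Cd8b1 at -0.63 ± 0.15, the former not called under 9 of the alternatives, among them each of 4 single libraries left out, with adjusted p up to 0.210. None of the 3 tested mast cell and basophil markers was called by edgeR or DESeq2 (1 had an unadjusted p under 0.05 by edgeR), but 1 was lower by edgeR without pTh17 library 15 and when the fit held only the libraries of the contrast.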
